A study of Mus musculus with 3 samples.

Results

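The laminin and nidogen genes Lama1, Lama2, Lama4, Lama5, Lamb1, Lamb2, Lamb3, Lamc1, Nid1 and Nid2 were followed through the stromal cells of the fetal mouse thymus. These 10 genes were taken from the 27998 genes of the count tables by name, and their molecules were counted in epithelial, mesenchymal, endothelial and mural cells of each genotype. Every member was present in the tables, and all 10 passed the filter on low counts in the tests between cell classes.

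Laminins are the cross-shaped glycoproteins that found a basement membrane, the thin matrix sheet under epithelia and around vessels. Each laminin is built from an alpha, a beta and a gamma chain, and the alpha chain sets which cell receptors, mainly integrins and dystroglycan, it binds. Nidogens bind the laminin gamma chain and link the laminin network to the collagen IV network. In the thymus, basement membranes bound the epithelial lobes, the capsule and the vessels through which progenitors enter.

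The data were droplet libraries of C57BL/6 embryos at gestational day 13 to 13.5, with 1 library for each of 3 genotypes: wild type (WT), Tbx1neo2/neo2 and Foxn11089/1089. In Tbx1neo2/neo2 embryos both copies of Tbx1, a T-box factor of the pharyngeal apparatus, carry a neomycin cassette in an intron, and they serve as a model of 22q11.2 deletion syndrome. In Foxn11089/1089 embryos both copies of Foxn1, the regulator of thymic epithelial differentiation, carry a short deletion in the coding sequence. Both mutations act in the whole embryo, the lobes were dissociated with trypsin without a sort, and the number of embryos per library is not given in the sources used here.

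The 3 libraries held 5759 to 12447 barcodes, of which 3954 to 10309 passed the filters with median depths of 14579 to 27497 UMIs (unique molecular identifiers, each marking 1 captured RNA molecule). Pairs of libraries shared 17 to 28 barcodes. Over the kept cells, Tbx1 stood at 1.40 CPM (counts per 1000000 UMIs) in WT, 4.79 in the library labelled Tbx1neo2/neo2 and 5.44 in the Foxn11089/1089 library, so the targeted transcript was not lower in the library labelled for it. Foxn1 stood at 38.4, 34.8 and 76.7 CPM. These 3′ counts do not read the altered sequence and do not check either label.

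Cells were classed by at least 2 UMIs of a marker: Epcam for epithelium, Pdgfra for mesenchyme, Cdh5 for endothelium, and Rgs5 together with Acta2 for mural cells (pericytes and smooth muscle). There were 1972, 776 and 3636 Epcam-positive cells in the WT library, the library labelled Tbx1neo2/neo2 and the Foxn11089/1089 library, an order kept for all triplets of values below. Pdgfra-positive cells numbered 672, 1191 and 2221, Cdh5-positive cells 46, 87 and 86, and Rgs5/Acta2-positive cells 23, 302 and 49. Many Rgs5/Acta2-positive cells also held at least 2 Pdgfra UMIs, and 15, 138 and 24 were left when such cells were taken out. All 8 epithelial, all 8 mesenchymal, all 8 endothelial and all 8 mural markers exceeded 10 CPM in the matching class of every library. Each list includes the gene or genes that defined its class (Epcam, Pdgfra, Cdh5, or Rgs5 and Acta2), which passed this limit by design. The Rgs5/Acta2-positive cells also carried the mesenchymal list at a summed 3627, 5703 and 5090 CPM, against 8318, 10440 and 7874 CPM in Pdgfra-positive cells. In the 23 such cells of the WT library the red blood cell list summed to 6017 CPM, against 182 and 1033 CPM in the other libraries, and the part of this RNA in the WT values was not tested.

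The promoters of Lama5, Lama2, Lamb1 and Nid1 are shown because these genes span the class pattern described below, from epithelial to shared to mesenchymal. Each is the 150 bases before a RefSeq transcription start (GRCm38.p6), on the strand of the gene, with GC boxes (GGGCGG on either strand, the core Sp1 motif) in capitals. RefSeq promoters were listed for 6 of the 10 members, with 7 starts.
Lama5 (chr2:180225860-180226009, minus strand): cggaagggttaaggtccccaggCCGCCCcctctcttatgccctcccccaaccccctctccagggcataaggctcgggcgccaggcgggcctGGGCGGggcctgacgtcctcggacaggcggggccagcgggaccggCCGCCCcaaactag
Lama2 (chr10:27616943-27617092, minus strand): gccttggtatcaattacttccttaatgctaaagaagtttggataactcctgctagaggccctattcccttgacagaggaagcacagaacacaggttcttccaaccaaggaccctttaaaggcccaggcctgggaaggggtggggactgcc
Lamb1 (chr12:31265143-31265292, plus strand): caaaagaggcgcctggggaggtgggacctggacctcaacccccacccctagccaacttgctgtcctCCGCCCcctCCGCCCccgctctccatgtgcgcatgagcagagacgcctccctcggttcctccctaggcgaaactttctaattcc
Nid1 (chr13:13437452-13437601, plus strand): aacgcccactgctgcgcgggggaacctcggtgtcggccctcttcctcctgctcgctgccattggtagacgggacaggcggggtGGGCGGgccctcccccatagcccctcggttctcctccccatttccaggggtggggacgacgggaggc
The Lama5 window held 3 GC boxes, the Lamb1 window 2, the Nid1 window 1, and the Lama2 window 0, as did those of Lamb2 and of both Lamb3 starts. GC boxes were found in 28.6% of the 32851 mouse promoters of the same length. The TATA box letters TATAAA, in 7.57% of promoters, were in none of the 7 windows, and the E-box CACCTG, in 10.6% of promoters, was in 1 window, that of a Lamb3 start. On the GENCODE annotation of GRCm38, Lama5 spans chr2:180176373-180225859, Lama2 chr10:26980036-27619758, Lama4 chr10:38965515-39110188, Lama1 chr17:67697259-67822647, Lamb1 chr12:31265234-31329644, Lamb2 chr9:108479736-108490530, Lamb3 chr1:193207699-193343878, Lamc1 chr1:153218922-153332786, Nid1 chr13:13437551-13512269 and Nid2 chr14:19751265-19811787. The counts are per whole gene and do not separate transcripts.

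The alpha chains divided the stroma by cell class. Lama5, the alpha chain of most mature epithelial basement membranes, was highest in Epcam-positive cells, Lama4, the chain of vessel walls, in Cdh5-positive cells, and Lama2, the chain of muscle and nerve sheaths, in Pdgfra-positive and Rgs5/Acta2-positive cells. Lama1, the chain of the earliest embryonic basement membranes, was low in every class. Class differences were tested in edgeR on 12 sums, 1 per class and library, with the library as a block and p-values adjusted over 13617 genes. As the 3 libraries are of 3 genotypes, their spread includes what the genotypes do to a class difference.

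Lama5 was at 20.1, 35.0 and 32.3 CPM in Epcam-positive cells. In Pdgfra-positive cells it was at 0.874, 0.947 and 0.550 CPM, from 6, 30 and 19 UMIs. The epithelial values thus lay above every mesenchymal value, by a log2 difference of 5.42 ± 0.53 (SE, n = 3 libraries, edgeR adjusted p = 1.1e-05). Rgs5/Acta2-positive cells held 0, 157 and 9 Lama5 UMIs, or 14.8 and 9.82 CPM in the libraries labelled Tbx1neo2/neo2 and Foxn11089/1089, while 0 UMIs in the WT library allow up to 10.4 CPM. The fit placed mural Lama5 above mesenchymal Lama5 by 3.81 ± 0.61 (edgeR adjusted p = 0.0054), and below epithelial Lama5, where the Epcam-positive cells were higher by 1.61 ± 0.53 (edgeR adjusted p = 0.034). The call against Pdgfra-positive cells was lost without the WT library (log2 difference 4.08) and without the library labelled Tbx1neo2/neo2 (3.49), as was that against Epcam-positive cells (1.54 and 1.97), which was also lost without the library block (1.42) and when mural cells that held Pdgfra were left out (0.94). The 8 epithelial markers summed to 17.3, 27.1 and 32.7 CPM in Rgs5/Acta2-positive cells and to 39.5, 32.5 and 27.8 CPM in Pdgfra-positive cells. In Cdh5-positive cells Lama5 was at 5.20, 8.64 and 0.530 CPM, from 4, 28 and 2 UMIs. The fitted excess over Pdgfra-positive cells, 2.52 ± 0.66 (edgeR adjusted p = 0.011), was seen in 2 of 3 libraries. Its call was lost without the library labelled Tbx1neo2/neo2 (1.26) and with classes from clusters (1.74).

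Lama4 followed the vessels. It was at 146, 148 and 157 CPM in Cdh5-positive cells, values whose counting intervals overlapped, and at 38.0, 60.7 and 34.9 CPM in Pdgfra-positive cells. The endothelial excess over mesenchyme was 1.91 ± 0.31 on the log2 scale (edgeR adjusted p = 0.00057) and that over Rgs5/Acta2-positive cells, at 24.2, 55.1 and 50.2 CPM, was 1.81 ± 0.35 (edgeR adjusted p = 0.0025). Mural and mesenchymal Lama4 did not differ beyond the spread of the libraries (0.10 ± 0.34, edgeR adjusted p = 0.96). Epcam-positive cells were lowest with 3.10, 5.32 and 1.44 CPM, a log2 difference of -3.78 ± 0.34 from Pdgfra-positive cells (edgeR adjusted p = 5.3e-06).

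Lama2 marked the mesenchyme and the mural cells. It was at 31.6, 24.0 and 30.3 CPM in Pdgfra-positive cells and at 13.8, 22.8 and 27.3 CPM in Rgs5/Acta2-positive cells, the WT mural value resting on 4 UMIs, and these classes did not differ (log2 difference -0.33, edgeR adjusted p = 0.96). Levels in Epcam-positive cells, 0.354, 0.792 and 0.713 CPM, stood against 0.536, 0.130 and 0 CPM in Ptprc-positive blood cells. Endothelial cells held 0, 2 and 3 UMIs. Against Pdgfra-positive cells the log2 difference was -5.49 ± 0.30 in Epcam-positive cells (edgeR adjusted p = 1.6e-07) and -5.47 ± 0.44 in Cdh5-positive cells (edgeR adjusted p = 3.2e-06).

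For Lama1, Epcam-positive cells gave 2.80, 2.15 and 10.1 CPM, with the Foxn11089/1089 library standing apart from the others. Pdgfra-positive cells gave 1.02, 0.789 and 1.25 CPM, and the epithelial excess of 2.08 ± 0.42 passed the test (edgeR adjusted p = 0.0017). In the Foxn11089/1089 library most epithelial Lama1 UMIs came from a small set of cells that is described further on. Mural and endothelial cells held 1 to 13 and 0 to 7 Lama1 UMIs per library, and the mural level could not be told from that of any other class (edgeR adjusted p = 0.24 against Pdgfra-positive, 0.27 against Epcam-positive and 0.14 against Cdh5-positive cells).

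**Figure D1:**
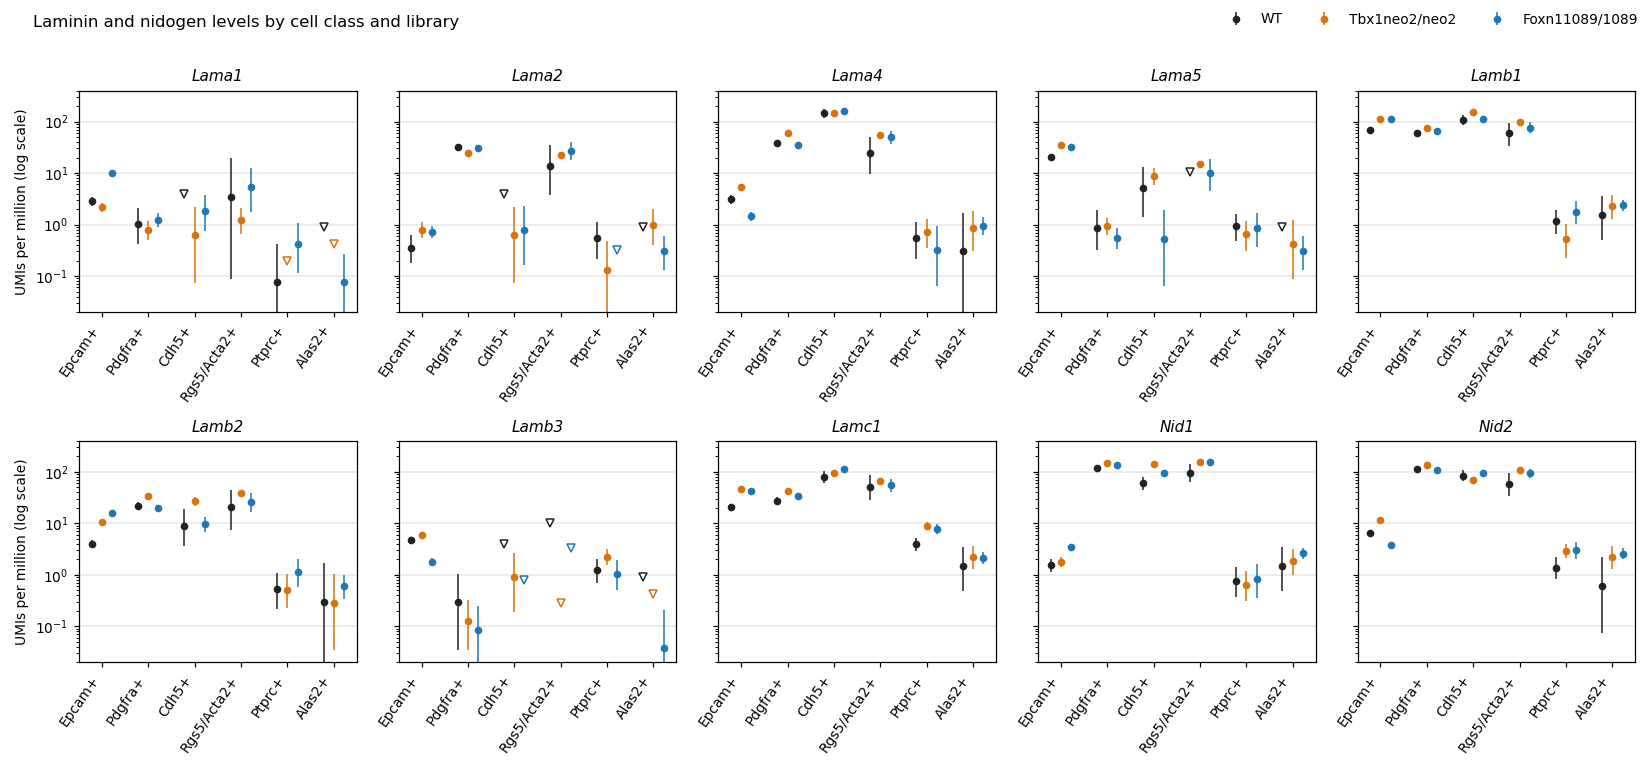
Level of each gene (CPM, log scale) in 4 stromal classes and in Ptprc-positive and Alas2-positive blood cells of each library, with exact 95% Poisson intervals that cover counting error only. Open triangles mark 0 UMIs and are drawn at the level of 3 UMIs. Lama5 peaks in Epcam-positive cells (20.1 to 35.0), Lama4 in Cdh5-positive cells (146 to 157), and the nidogens are low in Epcam-positive cells alone of the 4 stromal classes.

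Of the beta chains, Lamb1, the beta chain of most embryonic laminins, was well represented in all 4 classes. It was at 67.5, 114 and 111 CPM in Epcam-positive cells, 59.9, 75.6 and 65.8 CPM in Pdgfra-positive cells, 107, 153 and 112 CPM in Cdh5-positive cells, and 58.7, 100.2 and 76.3 CPM in Rgs5/Acta2-positive cells. The endothelial cells were highest, by 0.95 ± 0.14 over Pdgfra-positive cells (edgeR adjusted p = 0.00034) and by 0.68 ± 0.16 over Rgs5/Acta2-positive cells (edgeR adjusted p = 0.0071, lost without the WT library at 0.58 and without the library block). Epithelial Lamb1 exceeded the mesenchymal level by 0.57 ± 0.14 (edgeR adjusted p = 0.0061), a call that the fit without the library block did not make. The difference between Epcam-positive and Cdh5-positive cells, -0.38 ± 0.14, was at the edge of the threshold (edgeR adjusted p = 0.048) and was lost in most other settings. The mural level differed from neither the epithelial (edgeR adjusted p = 0.16) nor the mesenchymal one (edgeR adjusted p = 0.42) beyond the spread of the libraries.

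Lamb2, the beta chain known from the neuromuscular junction and the kidney filter, ran the other way. It was at 22.1, 34.7 and 19.8 CPM in Pdgfra-positive cells and at 20.7, 38.9 and 26.2 CPM in Rgs5/Acta2-positive cells, which did not differ (0.15 ± 0.41, edgeR adjusted p = 0.93). Epcam-positive cells were lower, at 3.95, 10.6 and 16.1 CPM, by a log2 difference of -1.34 ± 0.35 from Pdgfra-positive cells (edgeR adjusted p = 0.0092) that ranged from -2.48 in the WT library to -0.30 in the Foxn11089/1089 library. Without the WT library it was -0.87 and no longer called, as with classes from clusters (-1.21). Cdh5-positive cells, at 9.09, 26.8 and 9.81 CPM, were called against none of the other classes (edgeR adjusted p = 0.15 to 0.27). Without the Epcam-positive cells with high Pth or thyroid markers described further on, they were called against all 3, lower than Pdgfra-positive (-0.72) and Rgs5/Acta2-positive cells (-0.93) and above Epcam-positive cells (-1.91 for Epcam-positive against Cdh5-positive).

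Lamb3, the beta chain of the laminin that anchors stratified epithelia, had its highest measured level of the 4 stromal classes in Epcam-positive cells of every library. Epcam-positive cells gave 4.66, 5.89 and 1.78 CPM, and Pdgfra-positive cells 2, 4 and 3 UMIs, a log2 difference of 4.77 ± 0.58 (edgeR adjusted p = 0.00014). Cdh5-positive cells held 0, 3 and 0 UMIs. None was found among the 10641962, 917007 and 289511 UMIs of the Rgs5/Acta2-positive cells in the library labelled Tbx1neo2/neo2, the Foxn11089/1089 library and the WT library, which allows up to 0.282, 3.27 and 10.4 CPM. Ptprc-positive cells gave 1.23, 2.27 and 1.05 CPM, so Lamb3 UMIs were detected among blood cells as well.

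The gamma chain Lamc1, shared by most laminins, was at 80.5, 93.5 and 113 CPM in Cdh5-positive cells, and this was its highest class. Rgs5/Acta2-positive cells followed with 51.8, 66.8 and 54.5 CPM, lower than endothelium (0.80 ± 0.20 between them, edgeR adjusted p = 0.0098, lost without the Foxn11089/1089 library at 0.55 and without the library block). Pdgfra-positive cells gave 27.7, 42.8 and 34.3 CPM and Epcam-positive cells 20.7, 45.7 and 42.0 CPM. These did not differ beyond the spread (0.05 ± 0.17, edgeR adjusted p = 0.83), with the WT value lower in epithelium and the other values higher. Without the epithelial cells that carried the parathyroid hormone transcript or thyroid markers, the difference was -0.27, and it was not called. The mural level exceeded the epithelial one by 0.69 ± 0.19 (edgeR adjusted p = 0.015). This call was lost without the WT library, without the library labelled Tbx1neo2/neo2, without the library block and with 1 marker UMI. The mural level exceeded the mesenchymal one by 0.74 ± 0.19 (edgeR adjusted p = 0.053, past the threshold in DESeq2).

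Both nidogens were genes of the mesenchyme, the mural cells and the endothelium. Nid1 was at 121, 147 and 134 CPM in Pdgfra-positive cells, 96.7, 155 and 154 CPM in Rgs5/Acta2-positive cells, and 61.1, 143 and 97.0 CPM in Cdh5-positive cells. In Epcam-positive cells it was at 1.54, 1.81 and 3.47 CPM, against 0.766, 0.650 and 0.841 CPM in Ptprc-positive cells, and the log2 difference from Pdgfra-positive cells was -5.85 ± 0.28 (edgeR adjusted p = 7.9e-08). After thinning of each cell to 2000 UMIs, 22.2%, 24.5% and 21.8% of Pdgfra-positive cells held a Nid1 UMI, against 0.152%, 0.129% and 0.330% of Epcam-positive cells and 0.307%, 0% and 0% of Ptprc-positive cells. Before thinning these shares were 63.2%, 82.4% and 72.9%, then 1.98%, 5.93% and 5.23%, then 1.23%, 3.42% and 2.26%. The median depths behind them were 9478, 24900 and 14256 UMIs in Pdgfra-positive cells, 16648, 45582 and 20187 UMIs in Epcam-positive cells, and 20545, 59346 and 28927 UMIs in Ptprc-positive cells.

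Nid2 was at 113, 136 and 110.2 CPM in Pdgfra-positive cells, 58.7, 108 and 93.8 CPM in Rgs5/Acta2-positive cells and 84.4, 70.0 and 94.1 CPM in Cdh5-positive cells. Among these classes neither nidogen differed beyond the spread of the libraries (edgeR adjusted p = 0.24 to 1), although Nid1 was called lower in Cdh5-positive than in Pdgfra-positive cells without the library labelled Tbx1neo2/neo2 (-0.65). Epithelial Nid2, at 6.52, 11.5 and 3.77 CPM, was lower than the mesenchymal level by a log2 difference of -4.06 ± 0.33 (edgeR adjusted p = 2.5e-06) and stood against 1.38, 2.92 and 3.05 CPM in Ptprc-positive cells.

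**Figure D2:**
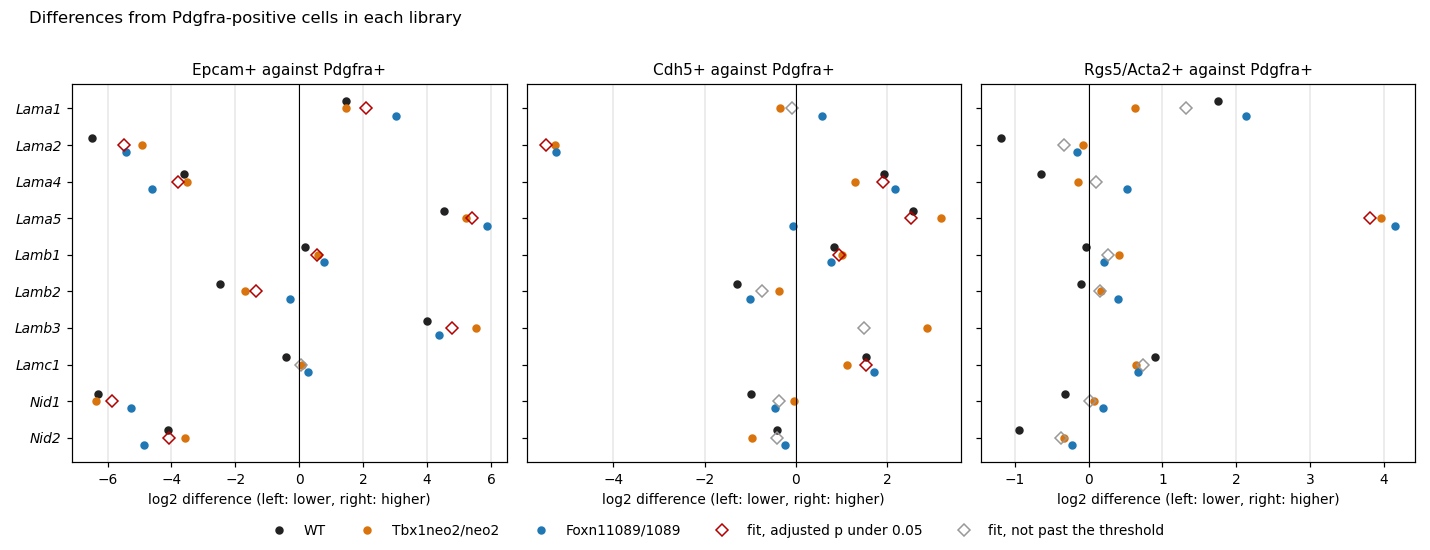
Log2 difference of each gene from Pdgfra-positive cells in Epcam-positive, Cdh5-positive and Rgs5/Acta2-positive cells. Circles are the 3 libraries and diamonds the edgeR fit over them, red where adjusted p was under 0.05. No circle is drawn where a class held 0 UMIs, and no diamond for Lamb3 in Rgs5/Acta2-positive cells, which held 0 in every library. The epithelial panel spans -5.85 (Nid1) to 5.42 (Lama5), while 1 gene, Lama5, passes the test in the mural panel.

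Counted over the members, 4 of 10 were higher and 5 of 10 lower in Epcam-positive than in Pdgfra-positive cells, where 23.5% of all genes tested were called higher and 22.5% lower. For Cdh5-positive against Pdgfra-positive cells, 4 members (Lama4, Lama5, Lamb1 and Lamc1) were higher and 1 (Lama2) lower, against 18.8% and 21.4% of all genes. Rgs5/Acta2-positive and Pdgfra-positive cells differed in 1 member, Lama5, which was higher, and none lower, against 2.81% and 1.81% of all genes. For Epcam-positive against Cdh5-positive cells, 3 members were higher (Lama1, Lama5, Lamb3) and 5 lower (Lama4, Lamb1, Lamc1, Nid1, Nid2), against 23.7% and 19.2%. Against Rgs5/Acta2-positive cells, 2 members were higher in Epcam-positive cells (Lama5, Lamb3) and 6 lower (Lama2, Lama4, Lamb2, Lamc1, Nid1, Nid2), against 18.5% and 17.2%. Endothelial and mural cells differed in 4 members, with Lama4, Lamb1 and Lamc1 higher and Lama2 lower in Cdh5-positive cells, against 13.8% and 14.7%. Without the Pth-high and thyroid marker cells described further on, Lama1 was no longer called between Epcam-positive and Cdh5-positive cells (1.30). The same call was lost with 1 marker UMI (1.38), without the library block (2.20) and without the Foxn11089/1089 library (2.21). That of Lamb3 was lost without the WT library (3.10). Leaving out a library took the members called between Epcam-positive and Rgs5/Acta2-positive cells from 8 to 5 (without WT) and to 4 (without the library labelled Tbx1neo2/neo2). Calls over all genes fell as well, from 4856 of 13617 to 3338 of 15036 and to 2737 of 12929.

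The genes that surround laminins in a basement membrane were counted by the same test. Lama3, the alpha chain that joins Lamb3 in the anchoring laminin, was higher in Epcam-positive than in Pdgfra-positive cells by 5.38 ± 0.74 (edgeR adjusted p = 0.00012), and Lamc3 was not called (-1.45 ± 1.02, edgeR adjusted p = 0.27). Among 22 basement membrane partners, 19 could be tested, and of these 5 were higher and 9 lower in Epcam-positive cells, with Frem2 (4.59 ± 0.52) and Col4a6 (2.45 ± 0.37) at the upper end and Smoc2 (-4.27 ± 0.30) and Frem1 (-3.82 ± 0.40) at the lower. In Cdh5-positive cells 9 partners were higher and 7 lower than in Pdgfra-positive cells, led by the vascular collagens Col15a1 (5.43 ± 0.38) and Col18a1 (4.34 ± 0.30). Of all genes, 23.5% were called higher and 22.5% lower in Epcam-positive cells, and 18.8% and 21.4% in Cdh5-positive cells. The median log2 difference of these 19 partners was -0.31 in Epcam-positive and 0.61 in Cdh5-positive cells, where that of all genes was 0.03 and -0.07.

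Receptors for laminin were counted next. All 12 listed receptors were tested, and 6 were higher and 4 lower in Epcam-positive than in Pdgfra-positive cells, with Itgb4, the integrin chain of hemidesmosomes, at 4.70 ± 0.76 and the Lama5 receptor Bcam at 4.54 ± 0.54 above. Endothelial cells had 7 higher and 3 lower, and Itga2 (7.65 ± 0.76) and Itga6 (5.85 ± 0.39) led them. Mural cells had 6 receptors higher than Pdgfra-positive cells and none lower, among them Itga7, an integrin of contractile cells, at 5.33 ± 0.91 (edgeR adjusted p = 0.011), and Bcam at 3.76 ± 0.59 (edgeR adjusted p = 0.0046). The shares of all genes called higher were 23.5%, 18.8% and 2.81% in the 3 comparisons, and those called lower 22.5%, 21.4% and 1.81%. The medians were 0.15, 1.58 and 1.44 in the 3 comparisons, against 0.03, -0.07 and -0.08 over all genes.

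The makeup of the alpha chains within each class was compared as shares of the UMIs of the 4 member chains, with exact 95% binomial intervals. Lama3 is not among them, and it held 330, 531 and 1124 UMIs in Epcam-positive cells and 40 in Cdh5-positive cells of the library labelled Tbx1neo2/neo2. Since these are 3′ counts, 1 UMI stands for 1 molecule of any length. Lama5 made up 76.2%, 80.9% and 72.4% of the UMIs of these 4 chains in Epcam-positive cells. The remainder moved between libraries: Lama1 took 10.7% (8.70% at the lower bound) of the WT, 4.97% of the Tbx1neo2/neo2-labelled and 22.7% of the Foxn11089/1089 epithelial UMIs, and Lama4 11.8%, 12.3% and 3.23%. In Pdgfra-positive cells Lama4 and Lama2 together made up nearly all of them. Lama4 took 53.2%, 70.2% and 52.1% and Lama2 44.2%, 27.8% and 45.2%, so that the WT and Foxn11089/1089 libraries lay close together and the library labelled Tbx1neo2/neo2 held a larger part of Lama4.

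In endothelial cells Lama4 took 96.6%, 93.8% and 98.0% of the UMIs of the 4 chains. Mural cells held Lama4 (58.3%, 58.7% and 54.1%), Lama2 (33.3%, 24.3% and 29.4%) and Lama5 (0%, 15.7% and 10.6%), where the WT shares rest on 12 UMIs. Among the beta chains Lamb1 dominated everywhere, with 88.7%, 87.3% and 86.2% in Epcam-positive cells and 72.7%, 68.5% and 76.8% in Pdgfra-positive cells. Of the nidogen UMIs, Nid1 took 51.6%, 51.9% and 54.8% in Pdgfra-positive cells, while in Epcam-positive cells it took 19.0%, 13.6% and 48.0%.

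**Figure D3:**
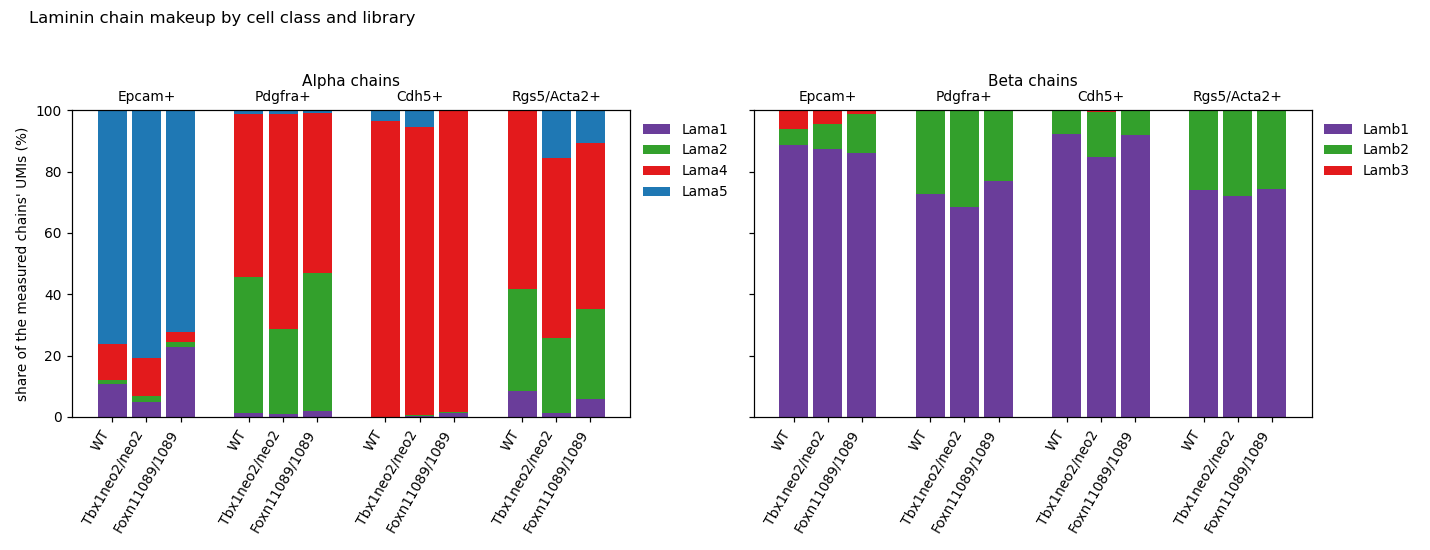
Share (%) of the 4 member alpha chains and of the 3 member beta chains in the UMIs of each chain family, by cell class and library. Lama5 fills 72.4% to 80.9% of the alpha bars of Epcam-positive cells and Lama4 93.8% to 98.0% of those of Cdh5-positive cells, while Lamb1 is the largest beta chain in all 12 bars.

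Within the Epcam-positive cells, laminin levels differed sharply between kinds of epithelium. The thymus and the parathyroid gland arise from a common pouch, and some Epcam-positive cells carried transcripts of the parathyroid or of the neighbouring thyroid. Cells with at least 50 Pth UMIs (parathyroid hormone), a limit set after the counts had been seen, numbered 26 in WT, 0 in the library labelled Tbx1neo2/neo2 and 269 in the Foxn11089/1089 library. The parathyroid regulator Gcm2 stood at 181 and 326 CPM in them, against 0.120 and 0.877 CPM in the remaining Epcam-positive cells, which are those without thyroid markers. A lower limit could not be used for the Foxn11089/1089 library, since there 22.0% of Pdgfra-positive and 41.6% of Ptprc-positive cells also held 2 or more Pth UMIs.

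These Pth-high cells were rich in Lama1, Lamb2 and Lamc1. Lama1 was at 90.4 CPM in the Pth-high cells of the WT library and at 1.97 CPM in the remaining Epcam-positive cells, a ratio of 45.8 (28.6 to 71.9, exact 95% interval of counting error). In Foxn11089/1089 cells it was at 79.5 and 2.60 CPM, a ratio of 30.5 (26.0 to 36.0). The pattern was thus seen in both libraries that held such cells, and in the Foxn11089/1089 library 656 of the 853 epithelial Lama1 UMIs came from them. Lamb2 was at 106 against 2.93 CPM in WT (ratio 36.2, 23.8 to 54.0) and at 130.2 against 3.60 CPM in the Foxn11089/1089 library (ratio 36.2, 31.6 to 41.5). Lamc1 was at 175 against 19.2 CPM (ratio 9.11, 6.81 to 11.99) and at 189 against 25.8 CPM (ratio 7.34, 6.86 to 7.85).

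The other chains moved less. Lama5 was 3.01 (1.80 to 4.73) and 3.38 (3.10 to 3.68) times the level of the remaining cells, whereas Lamb1 was 1.86 (1.32 to 2.54) times it in WT and 0.820 (0.761 to 0.883) times it in the Foxn11089/1089 library. Nid2 was low, with 1 UMI in the WT Pth-high cells and 2.79 CPM in those of the Foxn11089/1089 library. Between the libraries, the Pth-high cells themselves were alike within counting error for Lama1 (ratio of Foxn11089/1089 to WT 0.879, 0.607 to 1.32), Lamb2 (1.23, 0.874 to 1.78) and Lamc1 (1.08, 0.830 to 1.44).

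Epcam-positive cells with at least 2 UMIs of thyroid factors (Foxe1, Nkx2-1 and Pax8) numbered 7, 162 and 23, or 20.9% of the class in the library labelled Tbx1neo2/neo2. When cells were clustered, an epithelial cluster of that library (129 cells) was led by Epcam, Foxe1, Hhex and Nkx2-1, and another (62 cells) by Epcam, Wfdc2 and Sox2. Foxn1 stood at 2.05 CPM in the 162 cells and at 79.2 CPM in the 23 cells of the Foxn11089/1089 library. The part of each kind of cell in this group was not tested, so it is named by its markers alone. The laminins of the 162 cells had another makeup. Lamb1 was at 35.6 CPM in these 162 cells and at 137 CPM in the remaining cells (ratio 0.260, 0.232 to 0.291), and Nid2 was at 2.81 against 14.1 CPM (ratio 0.1995, 0.129 to 0.296). Lamb2 was at 28.5 against 5.33 CPM (ratio 5.34, 4.39 to 6.53) and Nid1 at 3.99 against 1.16 CPM (ratio 3.45, 2.12 to 5.62). Lama1 was nearly absent, with 2 UMIs against 85.

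The remaining Epcam-positive cells were split by cortical markers (Psmb11, Prss16, Ccl25) and medullary markers (Krt5, Krt17). Krt5 was not confined to 1 kind of cell. When cells were clustered, 1 epithelial cluster of the Foxn11089/1089 library (495 cells) was led by Bpifa1, Krt5, Spink8, Gstm1 and Wfdc2. Its part in the group with medullary markers only was not tested, so that group is named by its markers alone. Lama1 was highest in cells with medullary markers only: in WT it was at 10.4 CPM there (6.69 to 15.5), at 2.80 CPM in cells with both kinds and at 0.869 CPM (0.506 to 1.39) in cells with cortical markers only. The same order of the outer groups held in the Foxn11089/1089 library, with 6.92 CPM (5.60 to 8.46) and 1.17 CPM (0.721 to 1.78). Lamb1 varied little, from 56.1 to 72.4 CPM over the 4 WT groups and from 102.3 to 125 CPM over the 4 Foxn11089/1089 groups. None of these markers reached 2 UMIs in 1843 Epcam-positive cells of the Foxn11089/1089 library, or 50.7%, against 10.5% in WT, at the median depths given above.

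**Figure D4:**
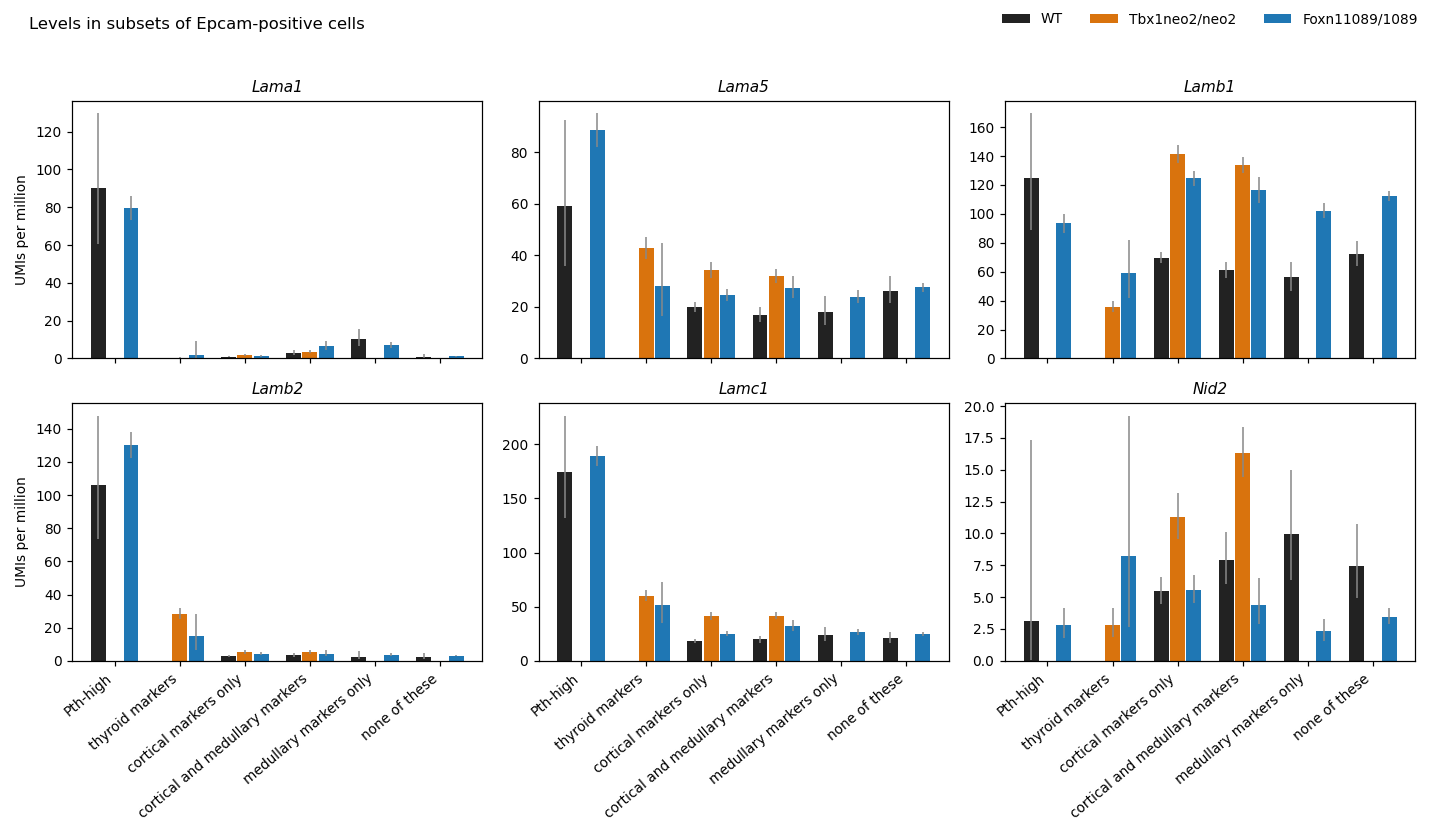
Levels of 6 genes (CPM, bars, with exact 95% Poisson intervals) in subsets of Epcam-positive cells, shown where a library held at least 15 such cells. Lama1, Lamb2 and Lamc1 stand highest in the Pth-high cells of both libraries that held them (90.4 and 79.5 CPM for Lama1), and Lamb1 and Nid2 are lowest of the shown Tbx1neo2/neo2-labelled groups in the cells with thyroid markers.

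The study set each hypoplastic thymus against WT, and the same was done here for each class. As each genotype is a lone library, no difference could be set against replicates or tested, and intervals of ratios cover counting error only. A gene was counted as higher or lower when its ratio to WT was at least 2 or at most 0.5 and it had at least 30 UMIs in the class over both libraries. The median gene was itself above WT in every class, by 0.39, 0.38, 0.42 and 0.20 on the log2 scale in Epcam-positive, Pdgfra-positive, Cdh5-positive and Rgs5/Acta2-positive cells of the library labelled Tbx1neo2/neo2, and by 0.29, 0.19, 0.27 and 0.26 in those of the Foxn11089/1089 library. Ratios are also given relative to this median where it matters.

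In Pdgfra-positive cells the members stayed within 2-fold of WT in both mutant libraries. None of 9 counted members was past 2-fold in the library labelled Tbx1neo2/neo2, where 17.2% of all genes were higher and 3.51% lower. The Tbx1 level of this library, not lower than in WT, is over all kept cells and not over this class. Of the counted members Lama4 had the highest ratio, 1.60 (1.40 to 1.83), or 1.23 relative to the median gene, followed by Lamb2 at 1.57 (1.32 to 1.87). Lama2 had the lowest, 0.759 (0.652 to 0.887), from 31.6 CPM in WT to 24.0 CPM, next to Lama1 at 0.774 from 7 and 25 UMIs. The nidogens were at 1.22 (Nid1) and 1.21 (Nid2), or 0.941 and 0.931 relative to the median gene. In the Foxn11089/1089 library none of 8 counted members was past 2-fold, against 6.28% of genes higher and 4.07% lower, and their ratios ran from 0.893 (Lamb2) to 1.24 (Lamc1).

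The mesenchymal values of the library labelled Tbx1neo2/neo2 included 87 cells with cartilage markers (Col2a1, Acan), 7.31% of the class, against 0 in WT and 3 in the Foxn11089/1089 library. In these 87 cells Nid1 was at 19.2 CPM (14.1 to 25.4), against 158 CPM in the 1104 Pdgfra-positive cells without the markers. Nid2 was at 35.1 against 145 CPM, Lamb1 at 24.7 against 80.0 CPM and Lama2 at 6.38 against 25.5 CPM. The cells with cartilage markers were thus low in these 4 genes, whereas their Lama4 (47.5 against 61.9 CPM) and Lamb2 (36.3 against 34.5 CPM) were closer to those of the other cells.

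Among Epcam-positive cells of the library labelled Tbx1neo2/neo2, 3 of 10 members were past 2-fold higher and none lower, against 16.5% of all genes higher and 5.11% lower. They were Lamb2 with 10.6 against 3.95 CPM (ratio 2.69, 2.21 to 3.29), Lama2 with 32 against 12 UMIs (2.24, 1.12 to 4.77) and Lamc1 with 45.7 against 20.7 CPM (2.21, 2.02 to 2.41). The WT level of Lama2 in this class was not above that of WT Ptprc-positive blood cells. Of the 32 Lama2 UMIs, 19 were in the cells with thyroid markers, as were 264 of the 430 Lamb2 UMIs. Without the cells with thyroid markers or high Pth the ratio was 1.82 (1.41 to 2.36) for Lamb2, 2.16 (1.96 to 2.38) for Lamc1, 2.04 (1.94 to 2.15) for Lamb1 and 2.14 (1.82 to 2.53) for Nid2. Lama5 and Lamb1 were at 1.75 (1.59 to 1.92) and 1.69 (1.60 to 1.78) over all Epcam-positive cells, or 1.33 and 1.29 relative to the median gene, and Lama1 was at 0.768 (0.567 to 1.04). The Lama1 ratio takes in 26 Pth-high cells of WT, which were rich in Lama1. It also takes in 162 cells with thyroid markers of the library labelled Tbx1neo2/neo2, which nearly lacked it. In the remaining Epcam-positive cells the measured Lama1 level was above that of WT, not below it.

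The Epcam-positive cells of the Foxn11089/1089 library had the most members past 2-fold. There were 5 of 10 higher and 2 lower, against 17.5% of all genes higher and 8.26% lower. The higher members were Lamb2 (16.1 against 3.95 CPM, ratio 4.07, 3.41 to 4.90), Lama1 (10.1 against 2.80 CPM, ratio 3.62, 2.92 to 4.52), Nid1 (3.47 against 1.54 CPM, 2.26), Lamc1 (42.0 against 20.7 CPM, 2.03) and Lama2 (60 against 12 UMIs, 2.01). Without the Pth-high cells and the cells with thyroid markers, Lama1 was at 1.32 (0.994 to 1.77), Lamb2 at 1.23 (0.973 to 1.57), Lamc1 at 1.35 (1.23 to 1.47) and Nid1 at 1.81 (1.33 to 2.52), and the members past 2-fold were Lama2 (2.15), Lama4 (0.466) and Lamb3. Both Lama2 ratios rest on a WT level that was not above that of WT Ptprc-positive blood cells. The Pth-high cells were 7.40% of the class in this library and 1.32% in WT. The ratios of Lama1, Lamb2 and Lamc1 were thus nearer 1 in the epithelium without the Pth-high and thyroid marker cells.

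Lamb3 and Lama4 were the lower members in that epithelium. Lamb3 was at 1.78 against 4.66 CPM, a ratio of 0.382 (0.304 to 0.481), and at 0.289 (0.223 to 0.373) without the Pth-high and thyroid marker cells. Lama4 was at 1.44 against 3.10 CPM (0.464, 0.354 to 0.609), and Nid2, at 3.77 against 6.52 CPM, was at 0.578 (0.485 to 0.689). Relative to the median gene these ratios were 0.313 (Lamb3), 0.380 (Lama4) and 0.473 (Nid2). Lamb1 and Lama5 were at 1.65 (1.58 to 1.73) and 1.61 (1.48 to 1.75), so the epithelial members of this library went in both directions. The share of Epcam-positive cells without cortical, medullary, thyroid or high Pth markers also differed between these libraries, as given above, and its part in the ratios was not tested.

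**Figure D5:**
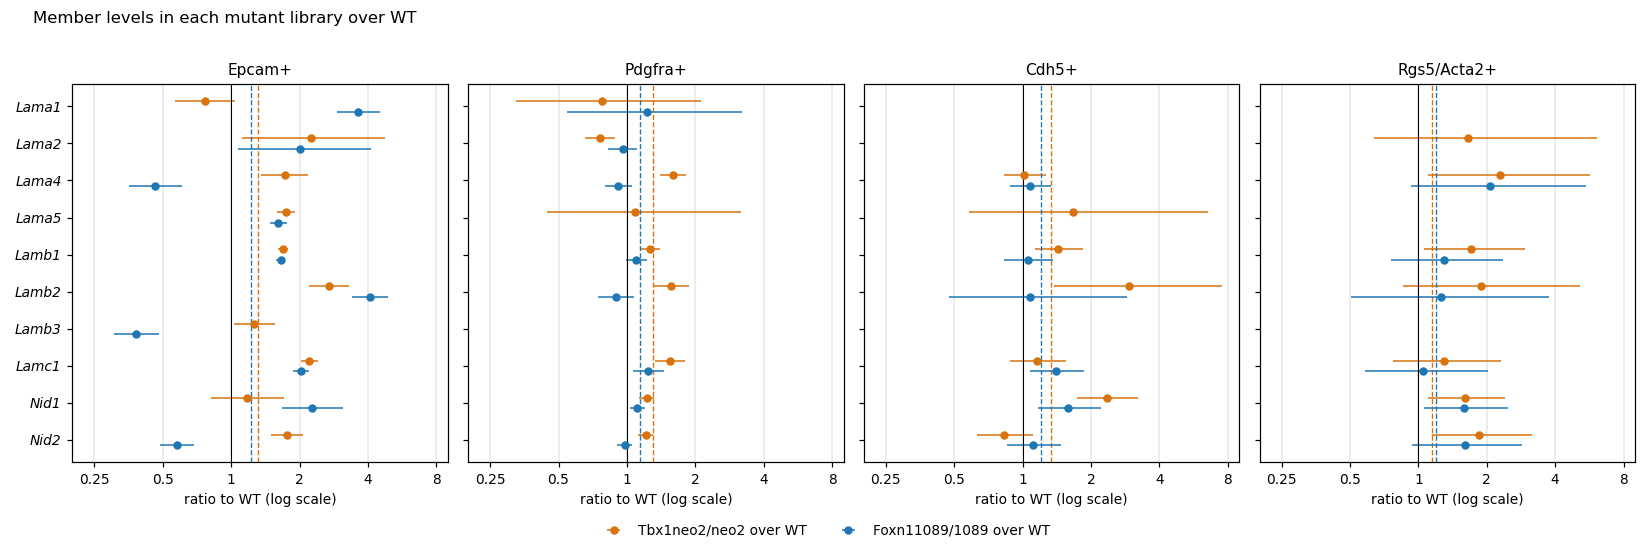
Ratio of each member to WT (log scale) in the library labelled Tbx1neo2/neo2 and the Foxn11089/1089 library, by cell class, with exact 95% intervals of counting error. Genes with under 30 UMIs over both libraries, or with 0 in WT, are not drawn, and dashed lines mark the median gene. Pdgfra-positive values stay between 0.759 and 1.60, while Foxn11089/1089 Epcam-positive values run from 0.382 (Lamb3) to 4.07 (Lamb2).

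Endothelial cells were few, and their ratios correspondingly wide. In the library labelled Tbx1neo2/neo2, 2 of 7 counted members were past 2-fold higher and none lower, against 25.4% of genes higher and 4.21% lower. These were Lamb2, with 87 against 7 UMIs (26.8 against 9.09 CPM, ratio 2.95, 1.37 to 7.56), and Nid1, with 143 against 61.1 CPM (2.34, 1.73 to 3.23). Of 8 counted receptors 5 were past 2-fold higher and 0 lower, from Itga1 at 0.640 and Itga2 at 0.713 to Itgb4 at 10.7 (2.88 to 89.6) and Bcam at 11.9 (5.02 to 36.9). Of 14 counted partners 7 were higher and 0 lower, with Npnt highest at 5.23 (1.71 to 26.0). Lama3 held 40 UMIs and Lamc3 43, against 0 of each in WT. When cells were clustered, all 8 endothelial markers were raised in 1 cluster of WT (49 cells) and in 2 of the library labelled Tbx1neo2/neo2 (57 and 54 cells), the second of these, led by Eln, Tm4sf1 and Ramp2, being left unnamed because 3 red blood cell markers were raised there as well. With the named clusters as the classes, the log2 ratio to WT was 1.15 for Lamb2 and 0.80 for Nid1, against 1.56 and 1.23. The part of the makeup of the class in the ratios of these members, receptors and partners was not tested. Lama4, the leading endothelial alpha chain, was at 1.02 (0.827 to 1.26), and Nid2 at 0.830 (0.627 to 1.11). In the Foxn11089/1089 library none of 6 counted members was past 2-fold, against 13.8% higher and 4.31% lower, with Nid1 at 1.59 (1.17 to 2.20), Lamc1 at 1.40 (1.07 to 1.86) and Lama4 at 1.08 (0.882 to 1.34).

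For Rgs5/Acta2-positive cells the WT side rested on 23 cells. Lama4 was the 1 member of 8 past 2-fold in the library labelled Tbx1neo2/neo2, at 2.28 (1.10 to 5.69) from 7 WT UMIs, with none lower, against 19.6% of genes higher and 9.33% lower. Lama5 had 157 UMIs against 0 and was at least 1.42-fold higher, taking 3 counts as the floor of the WT class. Lama4 was also the 1 member of 6 past 2-fold in the Foxn11089/1089 library (2.08, 0.930 to 5.45), an interval that includes 1, with none lower, against 17.3% and 3.17% of genes. The WT cells of this class also held the most red blood cell RNA of the 3 libraries, as given above.

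The pathway lists were counted in the same way. In Epcam-positive cells 9 of 20 counted basement membrane partners were past 2-fold higher in the library labelled Tbx1neo2/neo2, led by Smoc2 (9.40 against 1.03 CPM, ratio 9.10, 6.43 to 13.3) and the collagen IV chain Col4a6 (3.85, 3.11 to 4.8). For the Foxn11089/1089 library 9 of 21 were, led by Npnt, an integrin ligand of epithelial basement membranes (313 against 40.9 CPM, ratio 7.66, 7.26 to 8.09), and Sparc, a collagen-binding matrix protein (287 against 63.2 CPM, 4.54, 4.34 to 4.75). None was lower in either. Of all genes, 16.5% were higher and 5.11% lower in the library labelled Tbx1neo2/neo2, and 17.5% and 8.26% in the Foxn11089/1089 library. The median log2 ratios of the partners were 0.94 and 0.53, against 0.39 and 0.29 for all genes. Lama3 was at 1.35 (1.17 to 1.55) in the library labelled Tbx1neo2/neo2 and at 1.37 (1.21 to 1.56) in the Foxn11089/1089 library. The receptor Itga6 was at 3.12 (2.88 to 3.39) in the first of these libraries, and Bcam and Sdc4 were at 0.496 and 0.441 in the second.

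In Pdgfra-positive cells 7 of 20 partners were past 2-fold higher in the library labelled Tbx1neo2/neo2 and none lower, with Smoc2 at 3.64 (3.17 to 4.18) and Frem2 at 4.62 (2.07 to 12.8), whereas Frem1 was at 0.561 and Col4a2 at 0.832. Of all genes, 17.2% were higher and 3.51% lower there, and 6.28% and 4.07% in the Foxn11089/1089 library. The median partner in the library labelled Tbx1neo2/neo2 was at 0.43 on the log2 scale, near the median gene at 0.38. Of 18 partners counted in the Foxn11089/1089 library, 1 was higher (Smoc2, 2.44, 2.13 to 2.81) and 1 lower (Col15a1, 0.487, 0.330 to 0.730). Sdc2, a heparan sulfate receptor, was at 3.37 and 2.44 in the 2 libraries and was past 2-fold in Epcam-positive cells as well, at 2.09 and 2.31.

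The genes whose levels ran most like each member were found by Pearson's r over 18 sums (6 classes in 3 libraries, log2 of CPM with 1 added) among 13503 genes. Sums of a library share its depth, so r is a description. Lama2 was most like the fibrillar collagen Col3a1 (r = 0.986), then Olfml1 (0.984) and the collagen Col1a2 (0.983), Nid1 like Adgra2 (0.992), a receptor gene known from vessels and mesenchyme, and Lama4 like Ehd2 (0.979). Lama5 was nearest to Itga3 (0.967), which encodes a laminin-binding integrin chain, then to F2rl1 (0.906) and the desmosome gene Dsp (0.890). Lamb1 ran with Fermt2 (0.985), whose product activates integrins, Lamb2 with Pkd2 (0.981), Lamb3 with Galnt3 (0.957), Lamc1 with Iffo2 (0.986), Nid2 with Lix1l (0.986) and Lama1, the loosest, with Pou3f1 (0.906).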

How the data were processed

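Thymic lobes of 3 genotypes were dissociated and 1 droplet 3′ gene expression library was sequenced for each. Per the labels, the authors made the UMI counts with Cell Ranger 3.0.0 on mm10, and Seurat is also named in the submitters' processing notes. The deposited matrices hold raw, whole-number counts of UMIs per gene and barcode.

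Barcodes with at least 200 genes, under 20% mitochondrial UMIs and at least 2000 UMIs were kept. Cells with at least 2 UMIs of Epcam, Pdgfra, Cdh5, Ptprc or Alas2, or of both Rgs5 and Acta2 (whatever their Pdgfra), were classed, and cells of more than 1 class were left out. Barcodes with the highest Scrublet scores (scanpy 1.11.5; 329, 265 and 1239) were kept, and were left out in an alternative. Member counts were summed per class and library and scaled to 1000000 UMIs of that class (CPM), with exact Poisson 95% intervals, and ratios of libraries or subsets had exact conditional binomial intervals. Total counts were 82936619, 137498422 and 204655055 per library, and UMIs mark molecules, so intervals cover counting error only. For 0 counts, 3 counts were taken as the limit.

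Classes were compared with edgeR 4.0.16 (R 4.3.3; TMM, filterByExpr, quasi-likelihood test, class and library as terms, Benjamini-Hochberg adjustment over 13617 genes, threshold 0.05). Classes of a library come from the same cell suspension. The correlation of their deviations from the class means was 0.16 to 0.72 over 12975 genes, so the library was kept as a block. Genotypes have 1 library each and were compared without a test. Scripts were tested on simulated data.

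Named were every member, the 2 highest and 2 lowest genes of each list, and the 3 genes most like each member. Members, lists and classes were chosen with earlier results of these data known. The grouping of cells by 50 or more Pth UMIs was added after the data had been seen. Cartilage, cycling (Mki67, Top2a), thyroid, cortical and medullary cells were grouped by at least 2 summed UMIs of the genes named. Promoters came from RefSeq (GRCm38.p6) and gene spans from GENCODE vM21. Alternatives with other gates, clusters, limits, scalings and DESeq2 1.42.0 are given at the end.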

Additional observations from a re-analysis of the deposited data

Results flagged for a closer look

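Lama2 was on opposite sides of WT in 2 classes of the library labelled Tbx1neo2/neo2. Its ratio to WT was 2.236 in Epcam-positive cells, from 32 against 12 UMIs (1.12 to 4.77), and 0.759 in Pdgfra-positive cells, from 760 against 217 UMIs (0.652 to 0.887). The difference between the classes was not tested. The WT level in Epcam-positive cells, 0.354 CPM, was not above that of WT Ptprc-positive blood cells, as given above. Of the 32 epithelial UMIs, 19 were in cells with thyroid markers, and in the remaining Epcam-positive cells the ratio was 1.16 (0.490 to 2.79). No group held enough libraries for a check of single samples that lie apart.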

How the results depend on the processing

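Of the log2 differences between classes, 896 values kept their direction and side of the threshold over all alternatives, 39 lost the call, 14 gained it and 35 changed sign. Of the genotype values 787 held, 94 moved and 1 changed sign. The cause of each change was not tested. Members past 2-fold in the library labelled Tbx1neo2/neo2 went from 3 to 5 in Epcam-positive cells with 1 marker UMI or classes from clusters, and to 1 with median-of-ratios size factors or the mean of each cell's CPM. They went from 0 to 1 in Pdgfra-positive cells with clusters, and from 2 to 1 in Cdh5-positive cells with clusters or median-of-ratios. In Rgs5/Acta2-positive cells they went from 1 to 3 (1 marker UMI, a mitochondrial limit of 10%, or no Pdgfra), 4 (3 marker UMIs), 2 (a gate scaled to depth, without likely doublets, or at least 10 UMIs) and 0 (median-of-ratios). In the Foxn11089/1089 library they went from 7 to 3 in Epcam-positive cells without parathyroid and thyroid cells, by either Pth limit, from 0 to 1 in Pdgfra-positive cells with clusters, and from 1 to 0 in Rgs5/Acta2-positive cells (1 marker UMI, 10% limit, no Pdgfra, median-of-ratios or mean of each cell's CPM) or 2 (3 marker UMIs), where Lama4 turned to -0.26 with 1 marker UMI. Clusters gave no Rgs5/Acta2-positive values, since no mural cluster was found in 2 of the libraries. The share of all genes past 2-fold was counted in the main setting alone, so these changes of member counts have no such share beside them.

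Members that differed between Rgs5/Acta2-positive and Pdgfra-positive cells went from 1 to 2 with 3 marker UMIs, no Pdgfra or DESeq2, and to 0 to 1 on leaving out a library. Calls over all genes went from 629 of 13617 to 716 of 13286, 1023 of 12959 and 903 of 13617 in the first of these settings. They were 96 of 15036 without WT, 241 of 12929 without the library labelled Tbx1neo2/neo2 and 590 of 13905 without the Foxn11089/1089 library. Members called between Epcam-positive and Rgs5/Acta2-positive cells went from 8 to 4 to 8 on leaving out a library. Calls over all genes went from 4856 of 13617 to 3338 of 15036 (without WT), 2737 of 12929 (without the library labelled Tbx1neo2/neo2) and 4522 of 13905 (without the Foxn11089/1089 library). Without the library block, members called between Cdh5-positive and Rgs5/Acta2-positive cells went from 4 to 2, and calls over all 13617 genes from 3880 to 2607. No other count of members moved by over 1.5 times.

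Sign changes were seen in uncalled differences. Lamc1 between Epcam-positive and Pdgfra-positive cells was -0.01 with 1 marker UMI, -0.27 without parathyroid and thyroid cells by either limit, and -0.06 to 0.22 on leaving out a library. Lama1 between Cdh5-positive and Pdgfra-positive cells was 0.60 (1 marker UMI), 0.0023 (3 marker UMIs), 0.07 and 0.08 (without parathyroid and thyroid cells), 0.15 (no block) and -0.69 to 0.17 on leaving out a library. Between Rgs5/Acta2-positive and Pdgfra-positive cells, Lama4 was -0.04 and Lamb3 0.22 with 1 marker UMI, and Nid1 was -0.02 (3 marker UMIs, the gate scaled to depth, 10% limit, or library size alone), -0.0018 (without doublets), -0.27 (no Pdgfra) and -0.01 (no filter). On leaving out a library these were -0.05 to 0.24 for Lama4 and -0.05 to 0.21 for Nid1. Lama2 between Epcam-positive and Cdh5-positive cells was 0.18, 0.20, 0.26, 0.04 and 0.03 with 3 marker UMIs, the gate scaled to depth, the 10% limit, library size alone and no filter, and -0.17 to 0.27 on leaving out a library, when Lamb2 ran from -1.39, then called, to 0.04. Nid2 between Cdh5-positive and Rgs5/Acta2-positive cells was 0.05, 0.03, 0.03 and 0.35 with 3 marker UMIs, the gate scaled to depth, without doublets and with no Pdgfra, and -0.28 to 0.22 on leaving out a library. The WT library held 23 Rgs5/Acta2-positive and 46 Cdh5-positive cells, which limits the precision of its values there.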

Other observations

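Among Pdgfra-positive cells, those with 2 or more UMIs of the proliferation genes Mki67 and Top2a (25.3%, 31.6% and 34.9% of the class) gave lower Nid1 values than the others in each library, at 104 against 129 CPM in WT, 122 against 163 CPM in the library labelled Tbx1neo2/neo2, and 126 against 140 CPM in the Foxn11089/1089 library. Lamb2 had the same order, at 17.8 against 24.4 CPM, 30.04 against 37.6 CPM and 16.3 against 22.7 CPM. Nid2 had no common order, at 117 against 111 CPM, 131 against 140 CPM and 114 against 107 CPM. These are sums over cells of 3 libraries, and no test was made.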
